A study of Mus musculus with 4 samples.

Results

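Endothelial, blood and immune cell genes were read as a measure of RNA from other cells in flow-sorted mouse kidney nephron progenitors. The members were 35 named genes, looked up by symbol in the deposited gene table, and 34 were found among its 24339 genes: 11 endothelial, 17 immune and 6 erythroid. Ahsp, the chaperone of alpha globin, was not analysed here. Poly(A) RNA of GFP-positive cells labelled as mesenchymal nephron progenitors was sequenced in 4 libraries, 2 of Six2TGC and 2 of Six2Cre. Six2TGC is a BAC transgenic line that expresses a GFP-Cre fusion protein under Six2, a transcription factor gene of the progenitors. Six2Cre carries GFP-Cre behind a T2A sequence knocked into Six2, with the genotype Six2 Cre/+. Cells of both lines thus make GFP-Cre, the sort rests on the same reporter in both, and no group without it was analysed here. The labels give no age, and the name of the deposited table refers to embryonic day 18. They are silent on whether replicate libraries stem from different animals or from pools, so each p-value reflects the spread among these 4 libraries and that spread may be technical.

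The developing kidney is threaded by endothelial vessels and populated by resident macrophages and circulating red cells, none of which descends from the Six2-positive progenitors. Pecam1, Tie1 and Tek are surface proteins of nearly all endothelium, and Ptprc (CD45) covers leukocytes. Csf1r, Adgre1 and the C1q genes mark macrophages, and globin mRNA comes from erythroid cells. In a sort by GFP, RNA of these genes can come from cells or fragments carried along, or from the progenitors themselves where they transcribe such a gene. In these bulk libraries fewer cells of a type and less RNA per cell cannot be told apart.

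RNA of the defining progenitor genes was present in every library, at levels that differed between the lines for some of them. Six2 stood at 749 and 816 FPKM (fragments scaled by transcript length and library size) in Six2TGC and at 545 and 533 FPKM in Six2Cre, and Sall1, Wt1, Eya1, Osr1, Gdnf, Meox1 and Cited1 were all above FPKM 10 in every library. Of these 8 genes 1 was called higher (Six2) and 5 lower in Six2TGC, while with libraries scaled to the same total Eya1, Gdnf and Wt1 lost their calls and Sall1 was called higher. By the authors' deposited table, 1 was higher and 2 were lower. Cited1, a transcriptional coregulator of the earliest progenitors, changed most, with 109 and 94.6 FPKM in Six2TGC and 907 and 878 FPKM in Six2Cre. Meox1 was also lower, at 20.6 and 14.2 FPKM in Six2TGC and 62.4 and 64.3 FPKM in Six2Cre. Pecam1, against this, averaged 0.0171% of the Six2 level in Six2TGC and 0.149% in Six2Cre, and Ptprc 0.00316% and 0.00504%. The table holds no read counts. The spacing of low values put the depth of Six2TGC replicate 2 at 0.958 and of the Six2Cre libraries at 1.85 and 1.88 relative to Six2TGC replicate 1, so values near 0 are less precise in Six2TGC and a listed 0 does not show absence.

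Most members were low. Of the 34, 22 had a mean under FPKM 1 over the 4 libraries and were kept as low or absent, and Hbb-y was listed at 0 throughout. The 12 members above that level were tested with limma on log2(FPKM + 1), together with all 11917 genes that passed. Of them, 4 were called higher (Plvap, Cd34, C1qa and Hbb-bt) and 3 lower (Siglecg, Cd74 and Cd68) in Six2TGC at a Benjamini-Hochberg adjusted p under 0.05. Over all genes tested, 24.3% were called, 10.8% higher and 13.5% lower. The median log2 fold change was 0.25 over the 12 members and -0.03 over all genes tested. Higher calls made up 44.3% of all calls, and 76.2% with each library scaled to the same total, which moved the median of all genes by 0.16. By the authors' deposited table, significance was reached by 2 members that were higher (Plvap and Cd34) and 4 that were lower (Siglecg, Cd74, Cd68 and Tie1) of 14 tested there, where 6.94% of all genes were higher and 6.52% lower. Siglecg passed the level filter through Six2Cre, and C1qa, Hbb-bt, Laptm5 and Coro1a through Six2TGC, with a mean under FPKM 1 in the other line. A difference was thus built into their passing, and neither the counts nor the median support a direction over the members.

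**Figure D1:**
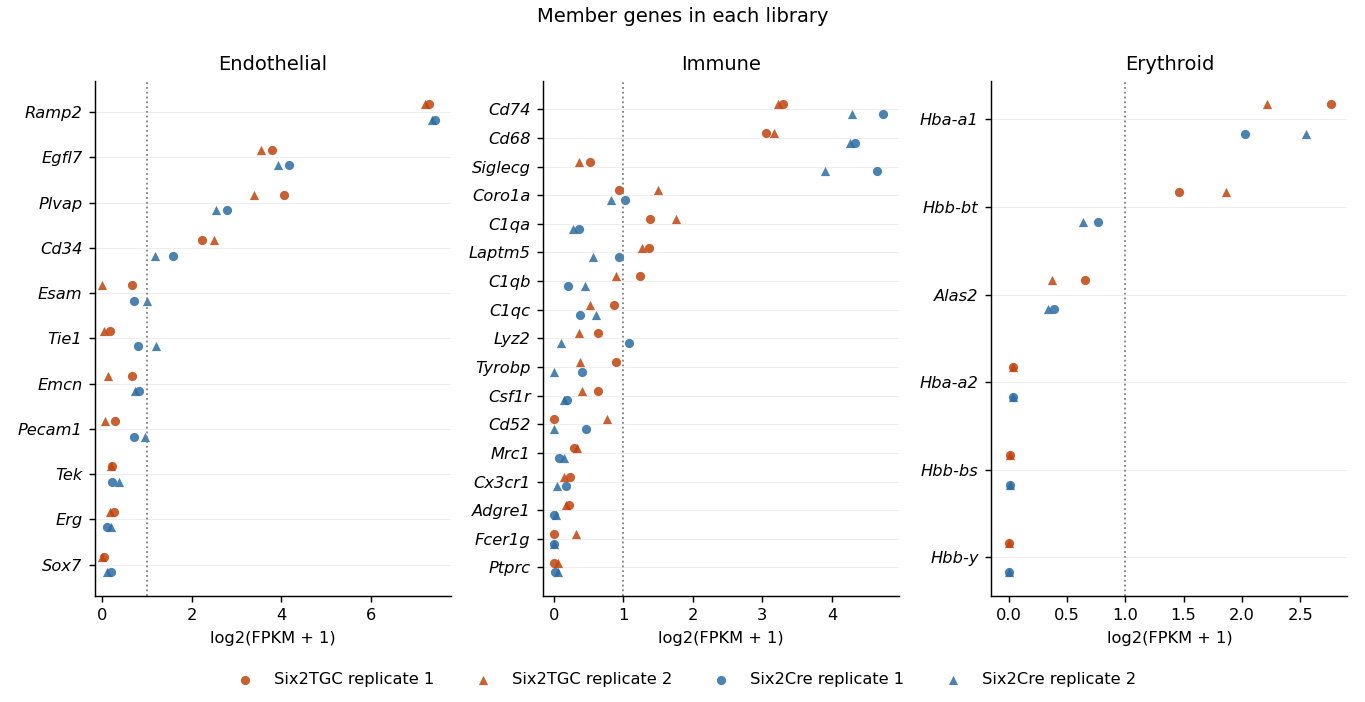
Level of each of the 34 member genes as log2(FPKM + 1) in the 4 libraries, with Six2TGC drawn above Six2Cre for each gene and the dotted line at FPKM 1. Ramp2 stood far above the other members in every library, and the lines are apart for the immune genes Siglecg, Cd74 and Cd68, lower in Six2TGC, and C1qa, higher in Six2TGC.

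The endothelial genes differed among themselves. Plvap and Cd34 were higher in Six2TGC, Ramp2 and Egfl7 were abundant with no call, and the 7 others, Pecam1, Tie1 and Tek among them, stayed at a mean under FPKM 1. Plvap, a protein of the diaphragms that span endothelial pores, had 15.6 and 9.52 FPKM in Six2TGC and 5.97 and 4.88 FPKM in Six2Cre. Both Six2TGC libraries lay above both Six2Cre libraries, with the wider gap inside Six2TGC. The mean was 2.315-fold higher, 12.6 ± 4.29 against 5.42 ± 0.772 FPKM (SD, n = 2 per line), with a log2 fold change of 1.05 ± 0.232 SE (limma adjusted p = 0.0279). Cd34, a surface sialomucin of endothelium and of several progenitor and stromal cells, had 3.74 and 4.66 FPKM in Six2TGC and 2.00 and 1.28 FPKM in Six2Cre. The lines did not overlap, and the mean was 2.56-fold higher (limma adjusted p = 8.68e-03; log2 fold change 0.99 ± 0.185 SE). The Plvap call was lost without Six2Cre replicate 1 (limma adjusted p = 0.0707) and without Six2Cre replicate 2 (0.112), and the Cd34 call without Six2Cre replicate 2 (0.0781). Cd34 shares exon sequence with Gm16897 on the other strand.

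Ramp2, a partner protein of the calcitonin receptor-like receptor in adrenomedullin signalling, had 156 and 147 FPKM in Six2TGC and 170 and 163 FPKM in Six2Cre. All 4 values lay within a narrow range, and no call was made (log2 fold change -0.13 ± 0.0729 SE, limma adjusted p = 0.227). With each library scaled to the same total the sign turned, at 0.039. Ramp2 alone made up 83.6% of the summed endothelial FPKM in Six2TGC and 86.2% in Six2Cre, while Pecam1 stood below FPKM 1 in all 4 libraries. Egfl7, a secreted vascular matrix protein whose gene hosts miR-126, had 12.96 and 10.7 FPKM in Six2TGC and 17.1 and 14.3 FPKM in Six2Cre. Both Six2TGC values were the smaller, but the test gave no call (log2 fold change -0.38 ± 0.127 SE, limma adjusted p = 0.0676). Egfl7 shares exon sequence with Agpat2 on the other strand and with Gm20532 on the same strand in GENCODE M21. Ramp2 shares exon sequence with Vps25 on the same strand, and no source used here states if reads were assigned by strand.

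Among the 7 low endothelial members, both Six2TGC libraries were below both Six2Cre libraries for 5 and above them for none, and Tek and Erg overlapped. Over all 5424 genes with a mean above 0 and under FPKM 1, 22.8% were in the lower and 19.9% in the higher arrangement. Tie1, an orphan receptor of the angiopoietin system, had 0.137 and 0.0359 FPKM in Six2TGC and 0.740 and 1.31 FPKM in Six2Cre. Pecam1, the junctional adhesion protein CD31, had 0.222 and 0.0463 FPKM in Six2TGC and 0.644 and 0.965 FPKM in Six2Cre. The mean ratio was 11.9-fold lower for Tie1 and 6.001-fold lower for Pecam1, on values too low for the main test. Fitted with no filter on low values, Pecam1 (log2 fold change -0.67, limma adjusted p = 0.0349) and Tie1 (-0.89, 0.0264) were called lower, and the authors' deposited table gives q = 0.0363 for Tie1. Emcn, a sialomucin of capillary endothelium, had 0.594 and 0.103 FPKM in Six2TGC and 0.784 and 0.677 FPKM in Six2Cre. Esam, a junction protein, had 0.595 and 0 FPKM in Six2TGC and 0.645 and 0.996 FPKM in Six2Cre. For these members Six2TGC replicate 2 was the lowest of the 4 libraries. Sox7, a transcription factor of early vessels, did not exceed FPKM 0.155, and Tek, the angiopoietin receptor, and Erg, an ETS transcription factor, did not exceed 0.300 and 0.216.

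Promoters of Tie1, lower in Six2TGC but under the level of the main test, and Cd34, called higher, are shown as examples. They were picked with their values in view from several endothelial members in each direction. The core letters of ETS factor sites, GGAAG on either strand, are in capitals. The stretches are the bases upstream of the RefSeq start on GRCm38.p6, chr4:118489850-118490099 on the minus strand for Tie1 and chr1:194938571-194938820 on the plus strand for Cd34.
Tie1: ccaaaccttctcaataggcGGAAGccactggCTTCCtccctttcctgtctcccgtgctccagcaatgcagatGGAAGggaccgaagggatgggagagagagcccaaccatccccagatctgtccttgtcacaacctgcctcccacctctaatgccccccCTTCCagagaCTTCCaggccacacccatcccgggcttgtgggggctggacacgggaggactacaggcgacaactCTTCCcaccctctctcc
Cd34: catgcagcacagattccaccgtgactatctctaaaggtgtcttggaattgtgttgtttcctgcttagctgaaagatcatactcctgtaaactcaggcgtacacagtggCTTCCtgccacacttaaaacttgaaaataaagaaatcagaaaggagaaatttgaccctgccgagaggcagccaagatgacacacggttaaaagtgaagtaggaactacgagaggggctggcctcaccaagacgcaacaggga
The Tie1 stretch held 6 matches and the Cd34 stretch 1. In the upstream 250 bases, 5 of the 6 endothelial members with a RefSeq promoter held GGAAG, as did 66.9% of 27025 genes, so the letters are common in promoters of any gene.

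A wider endothelial list of 33 genes was also low. Of these, 3 passed the level filter and 0 were called by limma (1 at an unadjusted p under 0.05), against 1 in the authors' deposited table. Flt4, a receptor for lymphatic growth factors and the highest of the list by its mean over the 4 libraries, had 3.14 and 2.19 FPKM in Six2TGC and 3.39 and 4.52 FPKM in Six2Cre. Cldn5, an endothelial tight junction protein, had 5.57 and 1.98 FPKM in Six2TGC and 2.00 and 1.77 FPKM in Six2Cre, with the highest single value of the list in 1 library and a mean above that of Flt4 in Six2TGC. Rasip1, which shapes vessel lumens, had 1.75 and 1.87 FPKM in Six2TGC and 3.49 and 2.18 FPKM in Six2Cre. Of the 30 low genes, 19 were lower in both Six2TGC libraries than in both Six2Cre libraries and 3 were higher. Over all 5424 genes with a mean above 0 and under FPKM 1, these shares were 22.8% lower and 19.9% higher. Cdh5, the cadherin of endothelial junctions, was at 0.267 and 0.105 FPKM in Six2TGC and 0.918 and 1.12 FPKM in Six2Cre (q = 0.0110 in the authors' deposited table).

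The immune genes moved in opposite directions. Siglecg, Cd74 and Cd68 were lower in Six2TGC, C1qa was higher, and Ptprc, carried by leukocytes, did not exceed FPKM 0.0495 in any library. Siglecg encodes an inhibitory sialic acid receptor best known from B cells, at chr7:43408280-43418349 (mm10). It had 0.437 and 0.285 FPKM in Six2TGC and 24.0 and 13.95 FPKM in Six2Cre. Siglecg passed the level filter through Six2Cre alone, and the alternative fits reuse the same libraries. The mean was 52.6-fold lower, 0.361 ± 0.107 against 18.98 ± 7.115 FPKM (SD, n = 2 per line), with a log2 fold change of -3.83 ± 0.247 SE (adjusted p = 2.35e-04 by limma). It was called in all 12 alternative fits, with log2 fold changes between -5.34 and -3.46. Other lymphocyte genes were low. Among 11 lymphocyte genes, Cd3d, Cd3e, Cd3g, Cd2, Ms4a1 and Nkg7 were listed at 0 in all 4 libraries, Cd79a had 0.107 and 0.223 FPKM in Six2TGC and 0.407 and 0.403 FPKM in Six2Cre, and 0 of 2 tested were called by limma (0 at an unadjusted p under 0.05, and 0 in the authors' deposited table). Those 2 were Lck, a T cell kinase, at 2.71 and 3.93 FPKM in Six2TGC and 2.61 and 2.93 FPKM in Six2Cre, and Cd79b, part of the B cell receptor, at 3.58 and 2.75 FPKM in Six2TGC and 3.33 and 1.23 FPKM in Six2Cre.

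Cd68, a glycoprotein of lysosomes that is abundant in macrophages, had 7.32 and 8.01 FPKM in Six2TGC and 19.2 and 18.1 FPKM in Six2Cre. The pairs were tight and far apart, with a 2.43-fold lower mean and a log2 fold change of -1.18 ± 0.0972 SE (limma adjusted p = 2.45e-04). Cd74, the invariant chain that escorts MHC class II proteins, had 8.81 and 8.36 FPKM in Six2TGC and 25.5 and 18.5 FPKM in Six2Cre. The mean was 2.57-fold lower, with a log2 fold change of -1.25 ± 0.148 SE (limma adjusted p = 1.72e-03). Among its class II partners in the wider immune list, H2-Ab1 was lower (log2 fold change -1.19, adjusted p = 4.19e-03 by limma), at 7.44 and 5.02 FPKM in Six2TGC and 16.4 and 14.3 FPKM in Six2Cre. H2-Eb1 was lower (-0.46, adjusted p = 0.0320 by limma), at 8.91 and 7.39 FPKM in Six2TGC and 12.3 and 10.9 FPKM in Six2Cre, while H2-Aa (-0.21) had no call. The H2-Ab1 call held in all 12 alternative limma fits, and the H2-Eb1 call was lost without Six2TGC replicate 2, without either Six2Cre library, with no filter on low values, with all libraries scaled to the same total and in the fit with neither trend nor robust step.

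Promoters of the lower immune members Siglecg and Cd68 are shown because both were called in the direction opposite to C1qa. Capitals mark GAGGAA on either strand, the core bound by PU.1, a transcription factor of myeloid and B cells. The stretches end before the RefSeq gene start on GRCm38.p6, at chr7:43407989-43408191 on the plus strand for Siglecg and chr11:69666171-69666420 on the minus strand for Cd68.
Siglecg: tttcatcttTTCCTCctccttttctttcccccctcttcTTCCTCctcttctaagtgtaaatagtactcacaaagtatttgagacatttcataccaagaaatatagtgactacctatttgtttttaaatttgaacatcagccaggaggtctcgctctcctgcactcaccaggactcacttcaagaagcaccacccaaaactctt
Cd68: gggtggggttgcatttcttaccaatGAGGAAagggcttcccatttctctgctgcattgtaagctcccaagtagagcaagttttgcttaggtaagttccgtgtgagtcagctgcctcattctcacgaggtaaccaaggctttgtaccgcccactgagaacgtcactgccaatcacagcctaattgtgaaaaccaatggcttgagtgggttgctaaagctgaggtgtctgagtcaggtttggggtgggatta
GAGGAA had 2 matches in the Siglecg stretch and 1 in that of Cd68. It occurred in 7 of the 11 immune members with a RefSeq promoter, within the 250 bases upstream of the start, and in 25.9% of 27025 genes. A GAGGAA followed by G also counts as GGAAG. Spi1, which encodes PU.1, had 0.212 and 0.444 FPKM in Six2TGC and 0.0579 and 0.0572 FPKM in Six2Cre.

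Apart from Cd68, which was called lower, the macrophage genes among the members were low in both lines. Of these low genes, C1qa was called higher in Six2TGC. C1qa, a chain of complement C1q, had 1.61 and 2.38 FPKM in Six2TGC and 0.293 and 0.217 FPKM in Six2Cre. C1qa reached the level filter through Six2TGC alone, so the filter favoured a difference in that direction. The mean was 7.81-fold higher, with a log2 fold change of 1.24 ± 0.197 SE (limma adjusted p = 4.58e-03), a call lost without Six2Cre replicate 2 (0.0516) and not made in the authors' deposited table (q = 0.109). C1qb, its partner chain, had 1.37 and 0.858 FPKM in Six2TGC and 0.150 and 0.370 FPKM in Six2Cre, and C1qc had 0.827 and 0.433 FPKM in Six2TGC and 0.302 and 0.523 FPKM in Six2Cre. The lines were apart for C1qb and overlapped for C1qc. Fitted with no filter on low values, C1qb was called higher (log2 fold change 0.74, adjusted p = 0.0457 by limma). Csf1r, the receptor that macrophages need to survive, had 0.550 and 0.323 FPKM in Six2TGC and 0.148 and 0.110 FPKM in Six2Cre. Adgre1 had 0.165 and 0.129 FPKM in Six2TGC and 0 and 0.0220 FPKM in Six2Cre. Mrc1, the mannose receptor of tissue macrophages, had 0.224 and 0.259 FPKM in Six2TGC and 0.0535 and 0.105 FPKM in Six2Cre. In each of these 3 genes both Six2TGC libraries were above both Six2Cre libraries, at levels too low for the main test. Csf1r shares exon sequence with Hmgxb3 on the other strand.

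Laptm5, a lysosomal protein of blood cells, had 1.59 and 1.42 FPKM in Six2TGC and 0.919 and 0.484 FPKM in Six2Cre with no call (log2 fold change 0.57 ± 0.193 SE, limma adjusted p = 0.0704). Coro1a, an actin-binding protein of leukocytes, had 0.922 and 1.84 FPKM in Six2TGC and 1.05 and 0.764 FPKM in Six2Cre, overlapping and with no call (0.30, 0.380). Of the 11 low immune members, 4 were higher in both Six2TGC libraries, none was lower in both, and 7 overlapped, against 19.9% higher and 22.8% lower over all low genes. The overlapping ones were the signalling adaptors Tyrobp and Fcer1g, the chemokine receptor Cx3cr1, the lymphocyte surface peptide Cd52, the lysozyme gene Lyz2, C1qc and Ptprc. Lyz2 reached 1.13 FPKM in Six2Cre replicate 1 and 0.0745 FPKM in Six2Cre replicate 2. Fcer1g was above 0 in Six2TGC replicate 2 and listed at 0 in the other 3 libraries.

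**Figure D2:**
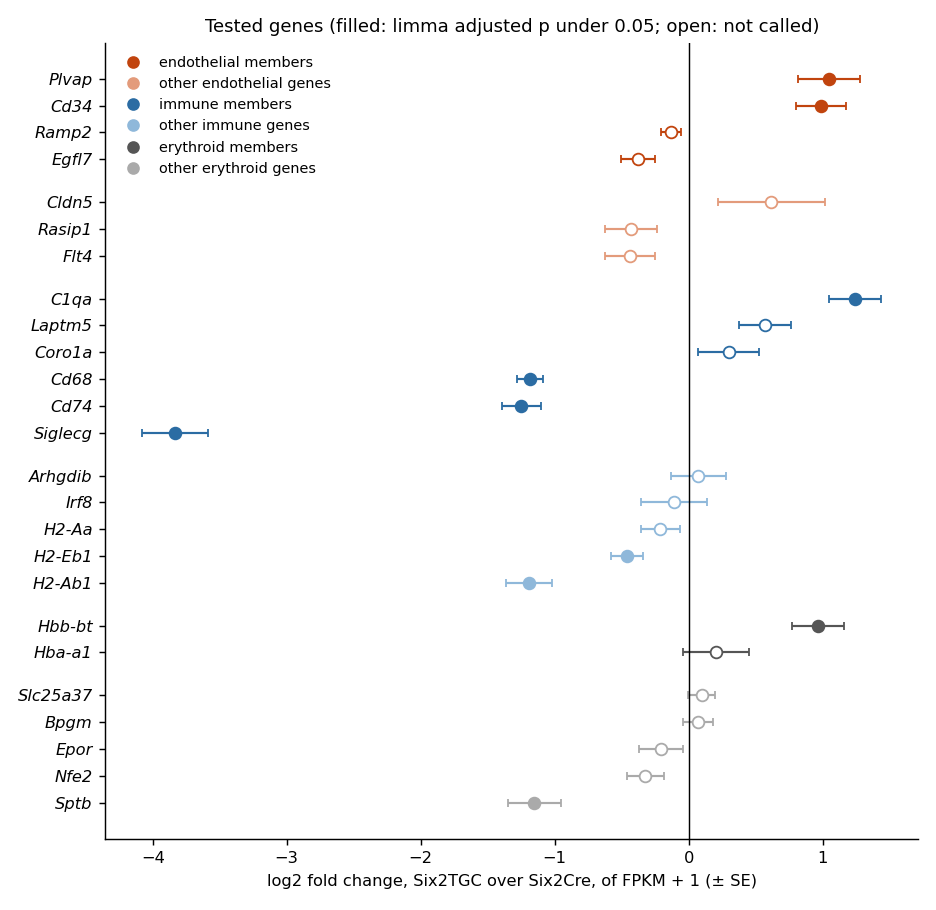
Log2 fold change, Six2TGC over Six2Cre, on the log2(FPKM + 1) scale with its SE for the tested members and for tested genes of the wider lists; filled points passed a limma adjusted p of 0.05 and open points did not. Siglecg lies farthest from 0 at -3.83, and the tested endothelial and immune members lie on both sides of 0.

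In the wider immune list of 36 genes, 5 passed the level filter, of which 0 were called higher and 2 lower, H2-Ab1 and H2-Eb1. Irf8, a transcription factor of myeloid and B cells, had 8.29 and 4.58 FPKM in Six2TGC and 7.08 and 6.49 FPKM in Six2Cre. Arhgdib, an inhibitor of small GTPases in blood cells, had 1.63 and 1.01 FPKM in Six2TGC and 0.972 and 1.42 FPKM in Six2Cre, and neither gene was called. Of the 31 low genes, 11 were higher and 5 lower in both Six2TGC libraries, 13 overlapped, and Cd48 and Vsig4 were listed at 0 throughout. Over all low genes with a mean above 0, 19.9% were higher and 22.8% lower. Mpeg1, a macrophage pore protein, went against the C1q genes, with 0.245 and 0.160 FPKM in Six2TGC and 0.858 and 0.993 FPKM in Six2Cre. The neutrophil genes S100a8 and S100a9 stood at 0.539 and 0.718 FPKM in Six2Cre replicate 1 and were listed at 0 in the other 3 libraries. The mast cell proteases Cma1 and Tpsb2 stood at 1.212 and 1.197 FPKM in Six2TGC replicate 1 and were listed at 0 elsewhere, and of 10 megakaryocyte and platelet genes none reached a mean of FPKM 1.

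Erythroid RNA was low in all 4 libraries, at a summed FPKM of 8.17 and 6.61 in Six2TGC and 4.12 and 5.72 in Six2Cre. With Hbb-b1, a row at the position of Hbb-bs, the sums were 17.2 and 11.6 FPKM in Six2TGC and 7.61 and 11.8 FPKM in Six2Cre, and the lines overlapped. Hba-a1 and Hba-a2 encode adult alpha globin, and Hbb-bs and Hbb-bt adult beta globin. The values of these genes rest on how near-identical copies were listed. Hba-a1 had 5.81 and 3.65 FPKM in Six2TGC and 3.08 and 4.87 FPKM in Six2Cre. The lines overlapped, with no call (log2 fold change 0.20 ± 0.246 SE, limma adjusted p = 0.594), and the sign turned without Six2TGC replicate 1 (-0.074) and without Six2Cre replicate 1 (-0.060). Hba-a2 stood at 0.0237 to 0.0264 FPKM in every library, and the table gives both symbols the same position, chr11:32296489-32297310, where RefSeq places Hba-a2 and not Hba-a1. Hbb-bs likewise stood at 0.00622 to 0.00818 FPKM, while Hbb-b1, an older symbol listed at the same position, chr7:103826523-103827929, had 9.02 and 4.99 FPKM in Six2TGC and 3.49 and 6.11 FPKM in Six2Cre. Hbb-b1 is no member, and it was examined because it shares that position. Its lines overlapped, with no call (0.46 ± 0.350 SE on the log2 scale, adjusted p = 0.411 by limma). The near-constant low values of Hba-a2 and Hbb-bs therefore give no level of those genes, although their Six2TGC values were all above their Six2Cre values.

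Hbb-bt, at chr7:103812524-103813923, had 1.76 and 2.64 FPKM in Six2TGC and 0.700 and 0.558 FPKM in Six2Cre. The lines did not overlap, and the mean was 3.50-fold higher (0.96 ± 0.194 SE on the log2 scale, adjusted p = 0.0118 by limma). Hbb-bt reached the level filter through Six2TGC alone, so the filter favoured a difference in that direction. The call was lost without Six2Cre replicate 1 (log2 fold change 1.02) or Six2Cre replicate 2 (0.90). It was not made in the authors' deposited table (q = 0.212). Whether reads of Hbb-bt were shared with Hbb-b1 was not tested. Alas2, the erythroid enzyme of haem synthesis, had 0.569 and 0.290 FPKM in Six2TGC and 0.308 and 0.266 FPKM in Six2Cre, overlapping, and Hbb-y, an embryonic beta-like globin, was listed at 0 in all 4 libraries.

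The likeness of the copies upstream of the RefSeq start (GRCm38.p6) is shown by 120 bases, with CCAAT and CACCC boxes on either strand in capitals. These bases do not show how reads were assigned. The stretches lie at chr11:32283552-32283671 and chr11:32296372-32296491 on the plus strand for Hba-a1 and Hba-a2, and at chr7:103827929-103828048 and chr7:103813924-103814043 on the minus strand for Hbb-bs and Hbb-bt.
Hba-a1: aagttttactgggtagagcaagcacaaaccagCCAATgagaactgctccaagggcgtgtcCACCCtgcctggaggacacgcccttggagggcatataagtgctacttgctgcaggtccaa
Hba-a2: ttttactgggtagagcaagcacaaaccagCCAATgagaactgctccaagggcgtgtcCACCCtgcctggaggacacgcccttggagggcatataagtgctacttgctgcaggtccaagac
Hbb-bs: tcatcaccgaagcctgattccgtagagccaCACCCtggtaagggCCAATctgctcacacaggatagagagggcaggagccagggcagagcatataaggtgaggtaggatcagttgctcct
Hbb-bt: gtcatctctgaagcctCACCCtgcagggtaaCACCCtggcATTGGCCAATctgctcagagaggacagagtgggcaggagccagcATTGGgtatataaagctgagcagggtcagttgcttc
Over the upstream 250 bases the alpha globin pair was identical at 247 of 247 aligned positions and the beta globin pair at 185 of 239. Their GENCODE M21 transcripts were identical at 99.8% and 93.8% of aligned positions. CCAAT was found in 5 of 6 erythroid members and CACCC in 6 of 6, against 37.5% and 54.5% of 27025 genes, and both boxes can share letters where they adjoin.

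**Figure D3:**
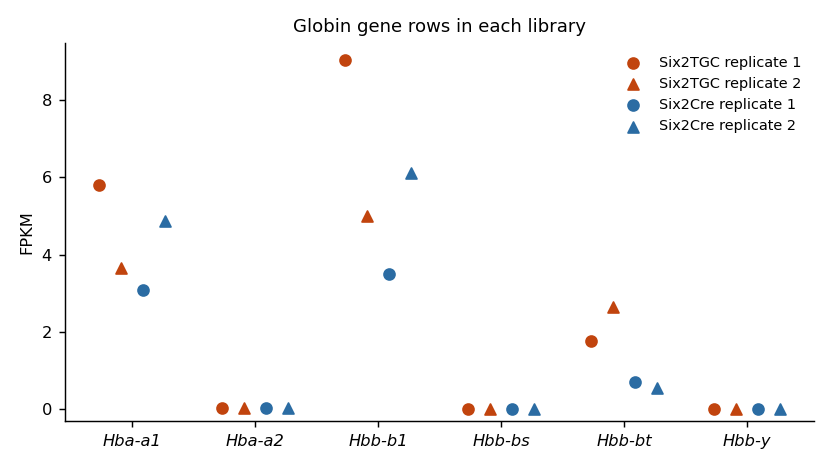
FPKM of the globin gene rows in each library, with the Six2TGC points left of the Six2Cre points. Hba-a1 and Hbb-b1 carry most of the globin signal with overlapping lines, Hbb-bt separates the lines, and Hba-a2, Hbb-bs and Hbb-y lie at or near 0.

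The wider erythroid list of 22 genes held 5 above the level filter. Sptb, which encodes a beta spectrin of the red cell skeleton that other tissues also use, was the single call, at 1.37 and 0.696 FPKM in Six2TGC and 3.15 and 3.78 FPKM in Six2Cre (log2 fold change -1.15, limma adjusted p = 6.71e-03), and it was lost without either Six2Cre library. Bpgm, an enzyme that sets oxygen affinity in red cells, had 12.9 and 15.2 FPKM in Six2TGC and 14.3 and 12.4 FPKM in Six2Cre. Slc25a37, a mitochondrial iron carrier, had 14.03 and 13.4 FPKM in Six2TGC and 11.9 and 13.7 FPKM in Six2Cre. Nfe2, a transcription factor of the red cell lineage, had 3.73 and 4.16 FPKM in Six2TGC and 5.59 and 4.79 FPKM in Six2Cre. None of these 3 was called. Gata1, the master transcription factor of red cells, and Rhag, Hemgn, Car1, Trim10, Hba-x and Hbb-bh1 were listed at 0 in all 4 libraries.

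Summed over members, each lineage gave a total set by 1 to 3 genes. Endothelial members summed to 191 and 173 FPKM in Six2TGC and 198 and 188 FPKM in Six2Cre, overlapping, with a ratio of means of 0.941. The 7 members with a mean under FPKM 1 summed to 1.98 and 0.473 FPKM in Six2TGC and 3.23 and 4.50 FPKM in Six2Cre, a ratio of 0.317. Immune members summed to 25.4 and 25.99 FPKM in Six2TGC and 73.6 and 53.4 FPKM in Six2Cre, a ratio of 0.405. Without Siglecg, Cd68 and Cd74, taken out after their values were seen, the sums were 8.84 and 9.34 FPKM in Six2TGC and 4.88 and 2.75 FPKM in Six2Cre, and the ratio turned to 2.38. Erythroid members had a ratio of 1.502, and 1.48 with the Hbb-b1 row added, where the libraries overlapped. These totals carry no test, since with 2 libraries against 2 an exact permutation cannot reach p under 0.05.

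**Figure D4:**
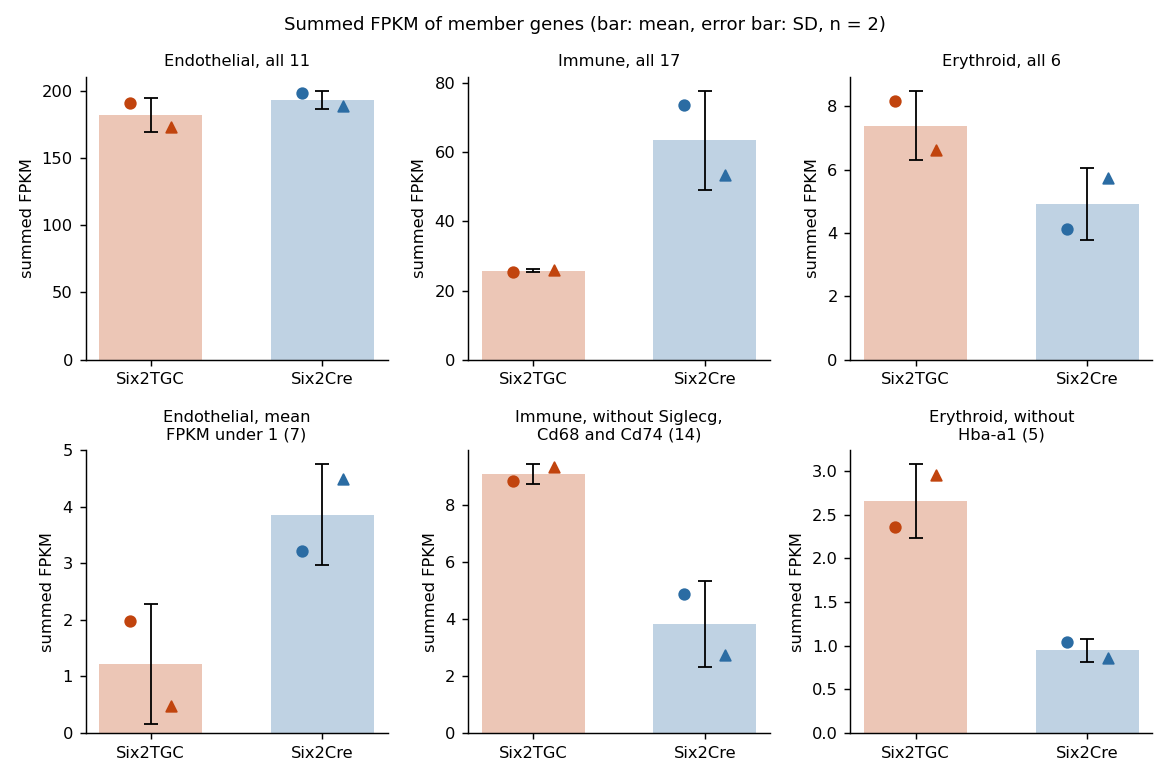
Summed FPKM per library of all members of a lineage (upper panels) and of a subset (lower panels); bars are means, error bars SD with n = 2, and Six2TGC stands left of Six2Cre. The immune total is 25.4 and 25.99 in Six2TGC against 73.6 and 53.4 in Six2Cre, and the order turns once Siglecg, Cd68 and Cd74 are left out.

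Markers of other kidney cells moved between the lines beside these genes. Of 7 stromal genes, all tested, limma called 3 higher in Six2TGC (Foxd1, Pdgfra and Pdgfrb) and 1 lower (Meis1). The shares over all 11917 genes tested were 10.8% higher and 13.5% lower. Pdgfra passed the level filter through Six2TGC alone. The authors' own comparison found 5 stromal genes significantly higher, with Col1a1 and Col3a1 added to these 3, and Meis1 lower. Its shares over all genes were 6.94% higher and 6.52% lower. Pdgfra, a receptor of fibroblasts and other stromal cells, had 2.55 and 2.33 FPKM in Six2TGC and 0.463 and 0.766 FPKM in Six2Cre, and the summed stromal level was 147 and 122 FPKM in Six2TGC and 109 and 78.1 FPKM in Six2Cre. Among ureteric bud genes, Wnt11, a secreted signal of the bud tips, was called higher (log2 fold change 1.38). The defining bud genes Ret and Wnt9b did not exceed 0.183 and 0.0948 FPKM. The part of any of these cells in the differences of Plvap, Cd34 and the C1q genes was not tested.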

How the data were processed

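Per the submitters' processing notes, reads went through HISAT2 and Cuffdiff on mm10; no source used here gives versions or the annotation. The authors deposited 1 table of FPKM values, for each library and as line means. Per the file headers, it also carries a test score, p-value and q-value of the authors' own comparison. Groups came from the sample titles.

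On log2(FPKM + 1), limma 3.58.1 (R 4.3.3; trend, robust, two-sided) compared Six2TGC minus Six2Cre over the 11917 genes whose mean reached FPKM 1, with Benjamini-Hochberg adjustment across them. This scale understates changes of low genes; folds in the text divide mean FPKM values. The script was tested on simulated data.

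Relative depth came from the most frequent ratio among values up to FPKM 0.4 and is approximate, with no interval. Table starts were converted to 1-based positions. RefSeq promoters (GRCm38.p6) were found for 23 members. Named genes were all members, all listed progenitor genes and, from each other list, up to 4 called genes with the largest change and the 3 most abundant; any other gene was picked with its values in view, such as Hbb-b1, Cdh5, Mpeg1, Spi1, Cd79a, S100a8 and Cma1. Members and lists were chosen with earlier results of these data known. The lines' library numbers lie in separate ranges, with no dates, so batch and line cannot be told apart. Some genes of the other lists are not reported here.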

Additional observations from a re-analysis of the deposited data

How the results depend on the processing

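The alternatives changed the pseudocount, level filter, scaling, model and libraries used. Of 138 alternative values for the 12 tested members, 126 kept direction and call, 6 lost the call, 3 gained one and 3 turned the sign. Over all genes 2900 were called, 953 to 2736 with a library left out, and 1637 in the authors' deposited table. The summed endothelial ratio of 0.941 became 1.06 with libraries scaled to the same total, 1.12 without Ramp2 and 0.317 over members under FPKM 1. The immune ratio of 0.405 became 2.15 over members under FPKM 1 and 2.38 without Siglecg, Cd68 and Cd74, and the erythroid ratio of 1.502 became 2.81 without Hba-a1. The exclusion of those 3 immune genes, the sums over members under FPKM 1 and the addition of Hbb-b1 were chosen after seeing the data. Called endothelial members numbered 2, against 4 with no level filter, 1 at a mean of at least FPKM 5 and 0 to 3 with a library left out. Called immune members numbered 4, and 3 to 5 over the alternatives. Called erythroid members numbered 1, against 0 at FPKM 5, 0 in the authors' deposited table and 0 to 1 with a library left out. Wider endothelial calls numbered 0, against 3 with no filter, 1 in the authors' deposited table and 0 to 1 with a library left out. Wider immune calls numbered 2, against 4 with no filter, and 1 each with the same total, with neither trend nor robust step and in the authors' deposited table (1 to 2 with a library left out). The wider erythroid call numbered 1, against 0 at FPKM 5 and 0 to 1 with a library left out. With the same total the log2 fold change was 0.039 for Ramp2, 0.037 for Irf8 and 0.17 for Osr1, which was 0.028 with median-ratio scaling and 0.024 with quantile normalization. With a library left out it ranged from -0.074 to 0.48 for Hba-a1, -0.041 to 0.18 for Bpgm, -0.061 to 0.90 for Cd79b, -0.48 to 0.26 for Irf8, -0.023 to 0.39 for Lck and -0.20 to 0.19 for Osr1. The cause of these changes was not tested beyond the libraries and genes each alternative removes. Deviations of same-numbered libraries from their line means correlated at -0.0399 over 11917 genes. With 2 libraries per line this single value cannot show whether same-numbered libraries were paired, also not for single genes. With the replicate block 2713 genes were called and Egfl7 gained a call (limma adjusted p = 0.0313). Depth is unknown in reads and limits members near 0.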
